A study of Mus musculus with 2 samples.

Results

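DNA repair and replication stress checkpoint genes were examined as a group of 48 named mouse genes in 2 osteosarcoma cell lines. The genes were chosen by name, and a probe set was taken for a gene only if that gene was its single symbol in the platform's annotation. This gave 103 probe sets for 46 of the 48 genes, out of 18193 genes with a probe set, and Xrcc2 and Rbbp8 were not analysed here. The lines were LM8, a highly metastatic subline, and Dunn, its parental line, which the labels call non-metastatic. LM8 is known as a line selected in mice from Dunn for spread to the lung. Both lines were untreated, grown in the same medium with 10% serum and 1% non-essential amino acids, and each was hybridised to 1 Affymetrix mouse array. With 1 array per line there is no replicate check on any difference, no test could be made and no p-value is printed, and precision is limited by that number.

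Cells repair broken DNA by homologous recombination, which copies an intact sister sequence, or by end joining, which ligates the ends directly. The Fanconi proteins open crosslinked DNA and hand it to recombination, mismatch repair corrects copying errors, and base excision repair removes damaged bases. The kinases Atm and Atr sense breaks and stalled forks and act through Chek2 and Chek1 to halt the cycle. Many recombination, Fanconi and checkpoint genes are known to be transcribed mostly in S and G2 phase, among them targets of the E2F transcription factors, whereas the Ku proteins and several base excision enzymes are made throughout the cycle.

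The promoters are shown first because 24 of the 39 genes with a promoter window share a short E2F core motif there. Promoter windows of 300 bases, 250 before and 50 after the gene start, came from a RefSeq table of the GRCm38.p6 mouse assembly. They were found by symbol for 39 of the 48 genes. The gene start of a window was not always the outer end of the gene's span. Windows such as those of Blm and Rad52 lay partly or wholly within that span. The E2F core was searched on both strands as TTCCCGC, with the further spellings TTGGCGC, likewise TTGCCGC, or else TTCGCGC. It was present for 24 of these 39 genes, or 61.5%. The share was 10.9% of the 27025 genes in the table and 19.2% of the 9614 genes that were also measured on the arrays. The median GC content was 60.0% for the members and 60.7% for the measured genes. By pathway, the core was found for 5 of 6 checkpoint genes, 3 of 3 mismatch repair genes, 5 of 8 Fanconi genes, 7 of 11 recombination genes and 3 of 4 end joining genes, and for 0 of 6 base excision genes. A CCAAT box (CCAAT, either strand) was present for 21 of 39 members, or 53.8%, against 43.2% of measured genes. The cell cycle homology region core (TTTGAA, either strand) was present for 1 of 39 members, Bard1, against 14.5% of measured genes.

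The upstream part of the Blm promoter is printed because Blm had the highest LM8 over Dunn ratio of the group. Capitals mark its E2F core and its CCAAT boxes, read 5′ to 3′ on the strand of the gene.
Blm (chr7:80534999-80535248, minus strand): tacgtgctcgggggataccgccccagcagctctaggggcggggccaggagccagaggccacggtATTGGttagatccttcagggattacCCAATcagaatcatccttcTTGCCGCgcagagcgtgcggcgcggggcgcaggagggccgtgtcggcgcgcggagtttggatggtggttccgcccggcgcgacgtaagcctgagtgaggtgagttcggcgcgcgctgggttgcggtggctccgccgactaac
Shorter stretches follow for the other members counted as higher in LM8 that held an E2F core, with the core in capitals. Those of Brca1, Brip1, Clspn and, further on, Chek1 are shorter because the core lay at or after the gene start.
Brca1 (chr11:101551916-101551945, minus strand): gctagcgctagGCGCCAAgcggccggtttc
Fancb (chrX:164980399-164980448, plus strand): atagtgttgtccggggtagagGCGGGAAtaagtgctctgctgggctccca
Brip1 (chr11:86201179-86201208, minus strand): aggggcgggagGCGCGAAttcatctgtgtg
Clspn (chr4:126556990-126557019, plus strand): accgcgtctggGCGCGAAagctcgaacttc
The checkpoint genes Chek1 and Topbp1, the mismatch repair gene Msh3 and the recombination gene Rad52 are given for comparison, since Rad52 held a core and was lower in LM8. In Topbp1 and Msh3 the capitals cover 2 overlapping cores.
Chek1 (chr9:36726609-36726638, minus strand): cagcatgacgcaagcaggttttgGCGGGAA
Topbp1 (chr9:103305177-103305226, plus strand): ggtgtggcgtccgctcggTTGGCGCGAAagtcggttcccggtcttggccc
Msh3 (chr13:92355173-92355222, minus strand): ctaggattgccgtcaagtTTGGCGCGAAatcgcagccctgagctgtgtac
Rad52 (chr6:119902545-119902594, plus strand): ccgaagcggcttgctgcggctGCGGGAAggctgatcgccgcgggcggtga
A match describes the letters in the window and is neither a binding site nor a cause of the levels below.

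The measurements were MAS5 signals, the linear brightness of a probe set, scaled so that both arrays had the same trimmed mean. The floor of an array was its median signal, 18.96 in LM8 and 21.06 in Dunn, and a lower signal was set to it. A gene took the value of its brightest probe set, and all 46 genes had at least 1 array above its floor. Each ratio is given on the log2 scale as LM8 over Dunn. Where 1 array lay under its floor the fold is only a bound and is written as at least N-fold. Over all non-control probe sets the signals of both arrays had a Spearman correlation of 0.870, across probe sets that are not independent replicates. The osteoblast markers Col1a1 (3537 in LM8 and 2399 in Dunn), Alpl (1739 and 1266) and Sp7 (743 and 687) were bright in both lines, as were Col1a2 (7350 and 8785) and Sparc (5248 and 5263). Ibsp, the remaining measured osteoblast gene, had 96.6 in LM8 and 239 in Dunn and was 2.48-fold lower. Ptprc, the common leukocyte gene, was below both floors. Of 10 macrophage markers, 7 were measured and all 7 were under 0 in log2 ratio, with a median of -0.47. For 4 of these 7 (Cd68, Adgre1, Lyz2 and Tyrobp) LM8 lay under its floor and only Dunn passed. Their ratios are bounds whose sign was fixed by that rule, and the median is itself such a bound. Of the 7, 2 were at least 2-fold lower, or 28.6%, beside 8.84% of all genes. Lyz2 was at least 2.36-fold lower. Csf1r had 26.8 in LM8 and the highest signal among the 7, 75.1, in Dunn. Its 3 measured probe sets ran from -1.49 to 0.48 in log2 ratio. Of 13 lymphoid, endothelial and epithelial markers, 4 were measured and none was 2-fold apart. The part of other cells in the repair gene results was not tested, and fewer cells of a type and less RNA per cell cannot be told apart in such bulk samples.

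As a group, repair and checkpoint genes had higher signals in LM8. Among the 46 genes, 10 exceeded Dunn by 2-fold or more, 2 were at least 2-fold lower and the remaining 34 differed by less. The higher genes made up 21.7% of the group, beside 6.51% of all 11830 measured genes, and the lower ones 4.35%, beside 8.84%. A log2 ratio above 0 was found for 35 of the 46 genes, or 76.1%, beside 44.7% of all genes. The median log2 ratio was 0.71, beside -0.08 for all measured genes, and 26 of 46 genes (56.5%) reached 0.5 or more, beside 18.2% of all genes. For 6 members (Bard1, Rad54b, Fancg, Fancm, Brip1 and Ogg1) only LM8 passed its floor, which largely fixed their place above 0. Without these 6 the median was 0.50, beside -0.06 for all genes with neither array at its floor. Of the 40 members left, 29 (72.5%) were above 0. Of these 40, 8 were at least 2-fold higher, beside 6.20% of all such genes, and 2 were lower, beside 7.95%. Scaling on array medians gave 16 higher and 2 lower members, and scaling on the hybridisation controls 22 and 1. Of all genes, 8.66% were higher and 6.55% lower on array medians, and 10.5% and 5.40% on the hybridisation controls. These scalings put the median of all genes at 0.07 and 0.16. A floor at the 75th percentile left 31 measured members, of which 5 were higher (Blm, Exo1, Nbn, Parp2 and Clspn) and 0 lower. The 5 were 16.1% of the 31, beside 5.13% of all genes measured at that floor, and 5.41% of all genes were lower. At that floor the log2 ratio was 1.15 for Blm, 0.54 for Rad54l and 0.19 for Fancb. With a pseudocount in place of the floor Brca1, Brip1 and Rad52 came under 2-fold, and Bard1 and Rad54b passed it.

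**Figure D1:**
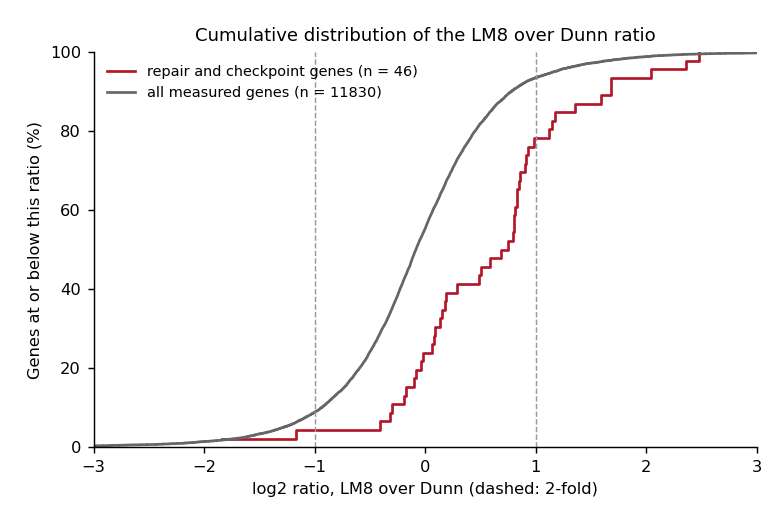
Cumulative share of genes (vertical axis, percent) by log2 ratio of LM8 over Dunn (horizontal axis) for the 46 repair and checkpoint genes (red) and all 11830 measured genes (grey), with dashed lines at 2-fold. The red curve lies to the right of the grey one over most of its course, with medians of 0.71 and -0.08.

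**Figure D2:**
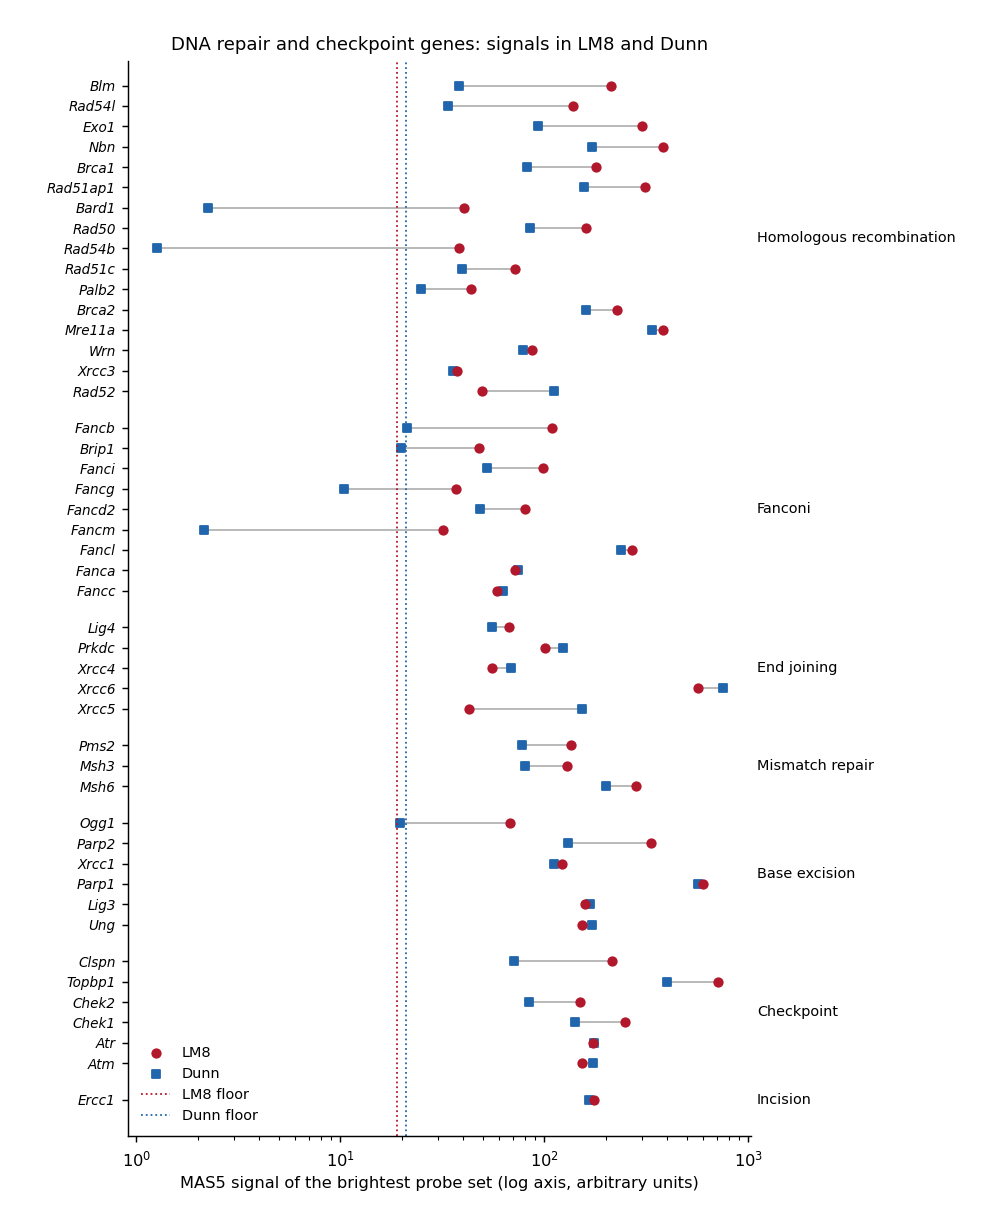
MAS5 signal of the brightest probe set of each of the 46 genes on a log axis, in LM8 (red circles) and Dunn (blue squares), grouped by pathway and ordered by ratio, with dotted lines at the floors of 18.96 (LM8) and 21.06 (Dunn). Blm, Rad54l, Fancb and Clspn show wide gaps with LM8 to the right, and Xrcc5 and Rad52 have LM8 to the left.

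Homologous recombination, with 16 of the 46 measured members, held 5 of the 10 higher genes. These 5 were 31.25% of the 16, beside 6.51% of all genes. The 1 lower gene was 6.25%, beside 8.84%. Among 16 measured genes, LM8 exceeded Dunn by 2-fold or more for Blm, Rad54l, Exo1, Nbn and Brca1 and was 2-fold lower for 1 (Rad52), and the median log2 ratio was 0.89. The helicase gene Blm, whose product dissolves recombination intermediates, had a signal of 213 in LM8, against 38.3 in Dunn, and was 5.56-fold higher. That ratio ranked 61st from the top among 11830 genes, on the only Blm probe set. Rad54l, which encodes a motor protein that drives strand invasion, had 139 in LM8 and 33.7 in Dunn, a 4.12-fold difference. Its other measured probe set was dim, with 26.5 in LM8 and 21.9 in Dunn and a log2 ratio of 0.28. Rad54b, its relative, had 38.2 in LM8 and lay under the floor in Dunn, and was at least 1.81-fold higher.

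The enzymes that trim broken ends differed among themselves. Exo1, an exonuclease of end resection and mismatch repair, had 299 in LM8 and 93.4 in Dunn and was 3.20-fold higher, and its second probe set had a log2 ratio of 1.52. It was the one called member with several measured probe sets that were all at least 2-fold apart in the same direction. The complex of Mre11a, Rad50 and Nbn, which binds and opens the ends, did not differ evenly. Nbn, its signalling subunit, had 380 in LM8 and 171 in Dunn and was 2.22-fold higher. Rad50, the tethering subunit, had 160 and 84.7, a 1.88-fold difference. Mre11a, the nuclease, had 379 in LM8 and 335 in Dunn, with a log2 ratio of 0.18 and another probe set at -0.36. The helicase gene Wrn, a relative of Blm, had 86.9 in LM8 and 78.3 in Dunn, with probe sets on both sides of 0, from -0.22 to 0.57.

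Of the genes that load or assist the recombinase, Brca1 alone among the members described next reached 2-fold. Brca1, which steers breaks to recombination, had 180 in LM8 and 82.4 in Dunn and was 2.18-fold higher. Its 4 measured probe sets ran from 0.34 to 1.72 in log2 ratio, all above 0. Bard1, the partner of Brca1, had 40.1 in LM8 and a Dunn signal of 2.25, far under the floor, and was at least 1.91-fold higher. Palb2, which bridges Brca1 and Brca2, had 43.5 in LM8 and 24.9 in Dunn, a 1.75-fold difference on dim signals. Brca2, which loads the recombinase, had 227 in LM8 and 160 in Dunn, with a log2 ratio of 0.51. Rad51ap1, which stimulates strand invasion, had 312 in LM8 and 157 in Dunn and lay just under the 2-fold limit at 0.99. Its 4 probe sets stayed close together, from 0.92 to 1.23, with an SD of 0.16. The paralog Rad51c had 71.5 in LM8 and 39.6 in Dunn, with a log2 ratio of 0.85, and its other probe set was at least 3.77-fold higher. Xrcc3, another paralog, had 37.2 in LM8 and 35.6 in Dunn. The paralogs Rad51b and Rad51d are not among the 48 genes. Rad51b was at least 1.15-fold lower, with 11.3 in LM8, under its floor, and 21.7 in Dunn, just above its floor. Rad51d had a log2 ratio of -0.43, but its 4 probe sets ran from -0.43 to 0.33.

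Rad52, which anneals single strands, went the other way. It had 49.4 in LM8 and 111 in Dunn and was 2.25-fold lower, and its other probe set was lower by less, with 53.5 in LM8, 90.0 in Dunn and a log2 ratio of -0.75. Rad52 was under 2-fold with probe sets averaged, on the hybridisation controls, at the 75th percentile floor and after a pseudocount was used.

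Fanconi genes split into a higher part and a level part. Among 9 measured genes, 2 (Fancb and Brip1) were at least 2-fold higher in LM8, or 22.2%, beside 6.51% of all genes. None was 2-fold lower, beside 8.84%, and the median log2 ratio was 0.75. This median was 0.32 with probe sets averaged, 0.43 with a pseudocount and 0.19 with the floor at the 75th percentile. For 3 of the 9 genes (Fancg, Fancm and Brip1) only LM8 passed its floor, which largely fixed their place on the higher side. Without these 3 the median was 0.47, with 1 gene higher. Fancb, a subunit of the core ubiquitin ligase complex, had 109 in LM8 and 21.3 in Dunn, just above the Dunn floor, and was 5.14-fold higher. Its other probe set, with 52.1 in LM8 and 28.6 in Dunn, had a log2 ratio of 0.87. Brip1, a helicase that binds Brca1, had 47.6 in LM8 and 19.8 in Dunn and was at least 2.26-fold higher. The 2 genes whose products are ubiquitinated together as a clamp on DNA were alike in ratio. Fanci had 98.4 in LM8 and 52.4 in Dunn (log2 ratio 0.91), and Fancd2 had 80.7 and 48.1 (0.75). The 3 dimmer Fancd2 probe sets ran from -0.08 to 0.33.

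The other core complex genes were dimmer or level. Fancg was at least 1.75-fold higher, with 36.8 in LM8. Fancm, a translocase that finds stalled forks, was at least 1.51-fold higher, with 31.7 in LM8. Fancl, the ligase subunit itself, had 270 in LM8 and 237 in Dunn. Fanca had 72.0 in LM8 and 73.8 in Dunn, and Fancc 58.2 and 62.5. The signs of Fanca and Fancc turned with the scaling, so neither has a settled direction.

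Checkpoint genes of the Atr branch did not differ evenly. Clspn was the 1 gene of 6 at least 2-fold higher (16.7%, beside 6.51% of all genes). None was 2-fold lower, beside 8.84%, and the median log2 ratio was 0.82. Clspn encodes claspin, the adaptor through which Atr activates Chek1, and had 214 in LM8 and 71.0 in Dunn, a 3.01-fold difference. Its other probe set, with Dunn under the floor, was at least 1.52-fold higher. Topbp1, the activator of Atr, had 705 in LM8 and 396 in Dunn, with a log2 ratio of 0.83. Chek1, the effector kinase, had 247 in LM8 and 141 in Dunn on its brightest probe set, a 1.76-fold difference. A second Chek1 probe set with 209 in LM8 and 77.8 in Dunn was 2.68-fold higher, and a dim one stood at 0.12 in log2 ratio. Chek2, the effector of Atm, had 149 in LM8 and 83.8 in Dunn, with a log2 ratio of 0.83. Other genes of the Atr branch, outside the 48, went both ways. Log2 ratios were -0.47 for Rad9a, -0.25 for Rad1 and 0.08 for Tipin. Atrip stood at -0.42, a bound because LM8 lay under its floor. Hus1 stood at 0.56 and Rad17 at 0.28, and Timeless was 2.01-fold higher. Etaa1 stood at 1.12 on its brightest probe set and at -0.42 on the other. The apical kinases were level. Atr had 173 in LM8 and 175 in Dunn, with 3 probe sets from -0.20 to -0.02. Atm had 153 in LM8 and 174 in Dunn, with both probe sets between -0.19 and -0.02, and the signs of Atr and Atm turned above 0 in at least 1 other scaling.

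**Figure D3:**
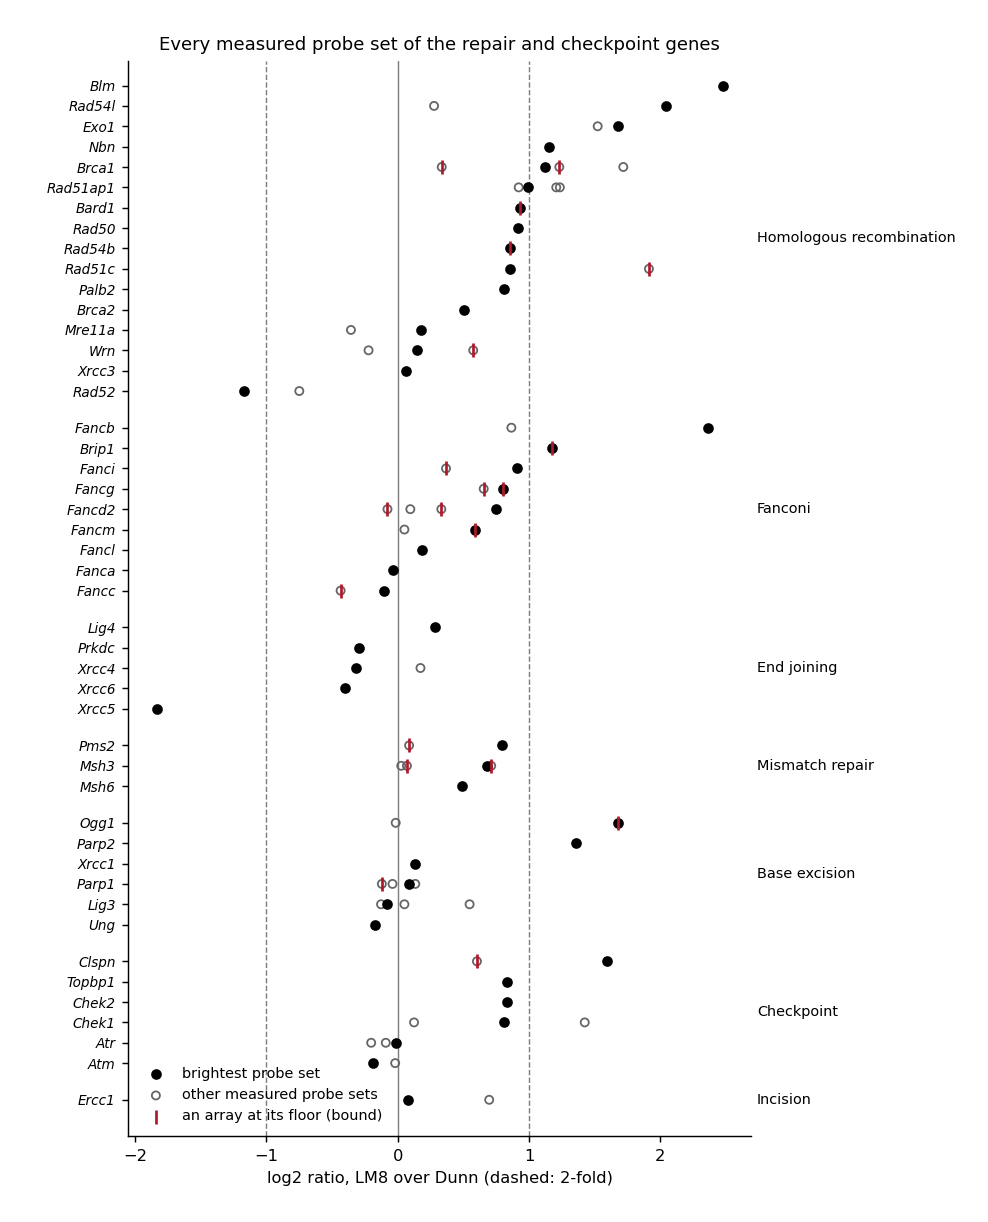
Log2 ratio of LM8 over Dunn for every measured probe set of each gene, with the brightest filled, others open, red ticks where an array lay at its floor, and dashed lines at 2-fold. Exo1, Rad51ap1, Atr and Parp1 have probe sets close together, whereas those of Rad54l, Fancb, Ogg1 and Chek1 lie far apart.

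End joining genes did not share the shift. Among 5 genes, 0 were 2-fold higher and 1, Xrcc5, was 2-fold lower, and the median log2 ratio was -0.31. Xrcc5 encodes the larger Ku subunit, which caps broken ends together with the Xrcc6 product. It had 42.9 in LM8 and 153 in Dunn and was 3.57-fold lower on its only probe set. With the floor at the 75th percentile its log2 ratio was -0.74, under 2-fold. Xrcc6 had 564 in LM8 and 747 in Dunn, with a log2 ratio of -0.40, so the signals of the genes for the Ku subunits differed between the lines by unequal amounts. Prkdc, the kinase recruited by Ku, had 100.4 in LM8 and 123 in Dunn, with a log2 ratio of -0.30. The ligase gene Lig4 had 67.2 in LM8 and 55.1 in Dunn (0.29), and its cofactor gene Xrcc4 had 55.1 and 68.6 (-0.31), with another probe set at 0.17.

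Mismatch repair genes lay above the group of all genes, with a median log2 ratio of 0.68, beside -0.08. None of Msh3, Msh6 and Pms2 was 2-fold apart, and their log2 ratios were 0.68, 0.49 and 0.80. Msh6, the partner that recognises single mismatches, had 281 in LM8 and 200.2 in Dunn. Msh3, which recognises larger loops, had 128 in LM8 and 80.0 in Dunn, and its 4 probe sets ran from 0.03 to 0.71. Pms2, a nuclease subunit that acts after recognition, had 135 in LM8 and 77.6 in Dunn, with a dim second probe set at 0.09.

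Base excision and single-strand break genes were mostly level. Parp2 and Ogg1 were the genes of 6 that LM8 showed at 2-fold or more above Dunn, 0 were 2-fold lower, and the median log2 ratio was 0.11. Parp2, which marks nicks with poly(ADP-ribose), had 333 in LM8 and 130 in Dunn and was 2.57-fold higher on its only probe set. Parp1, the main enzyme of that reaction, had 598 in LM8 and 563 in Dunn, with 4 probe sets between -0.12 and 0.13. Ogg1, which removes oxidised guanine, had probe sets that disagreed. The brighter one had 67.5 in LM8 and 19.5 in Dunn, at least 3.20-fold higher, and the other had 36.4 in LM8 and 36.8 in Dunn, so Ogg1 has no settled difference. The scaffold gene Xrcc1 had 122 in LM8 and 111 in Dunn, the ligase gene Lig3 157 and 167, and Ung, which removes uracil, 152 and 172. The signs of Lig3 and Ung turned with the scaling. Ercc1, a subunit of the nuclease that cuts beside bulky lesions and crosslinks, had 175 in LM8 and 166 in Dunn on the brighter probe set (0.08), and its other probe set stood at 0.70.

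Agreement between probe sets was partial. Of 25 members with several measured probe sets, 14 had all of them above 0, 4 had all below 0 and 7 had them on both sides. Within a gene, the SD across its probe sets (log2 ratio) had a median of 0.38 over these members and of 0.30 over 5521 genes, and this spread is not replicate error. The 12 called members comprised 5 with a single measured probe set (Blm, Nbn, Brip1, Parp2 and Xrcc5) and 7 with several, of which 6 had a probe set under the 2-fold limit. With scaling changed, 11 of the 12 stayed at least 2-fold apart in all 4 other scalings, and Rad52 did not.

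Members with and without an E2F core in the promoter differed in the middle of their ranges more than at the ends. The 24 genes with a core had a median log2 ratio of 0.81, with 5 higher, 1 lower and 20 above 0. The 15 without a core had a median of 0.09, with 3 higher (Rad54l, Ogg1 and Parp2), 1 lower (Xrcc5) and 9 above 0. Among all measured genes the medians were -0.02 for 1850 genes with a core and -0.10 for 7764 without, with 7.35% and 6.09% at least 2-fold higher. This is a description of names and letters and was not tested.

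**Figure D4:**
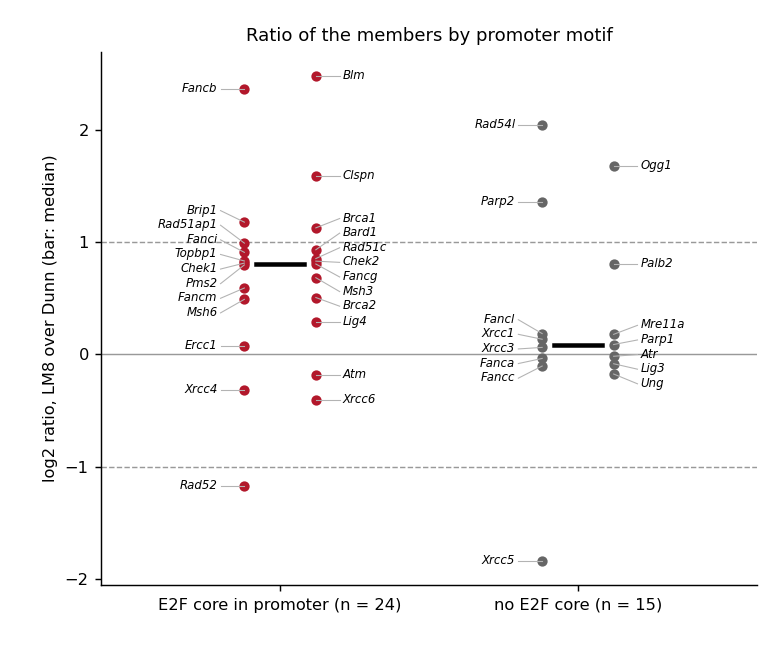
Log2 ratio of LM8 over Dunn for the 24 members with an E2F core in the promoter window (red) and the 15 without (grey), with bars at the medians of 0.81 and 0.09 and dashed lines at 2-fold. Most genes with a core lie above 0.5, and most without a core lie near 0.

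The pooled median of other genes of the same pathways lay closer to that of all genes than to that of the members. The lists differed. Other recombination and crosslink genes (0.55) and translesion synthesis genes (0.40) had median log2 ratios nearer the 0.71 of the members. The medians of the remaining lists lay nearer that of all genes. Of 103 further repair and checkpoint genes listed, 91 were measured. LM8 was 2-fold or more above Dunn for 9 (9.89%, beside 6.51% of all measured genes) and 2-fold lower for 2 (2.20%, beside 8.84%), and the median log2 ratio was 0.14, beside -0.08. Of 26 other recombination and crosslink genes, Eme1, a subunit of a nuclease that cuts branched DNA, was the 1 higher gene, at 3.52-fold, and the median was 0.55. Of these 26 genes, 17 lay above 0 in log2 ratio, and the lowest ratio was -0.86. Of 7 translesion synthesis genes, Mad2l2 (2.46-fold) and Rad18 (2.31-fold) were higher, and the median was 0.40. Of 14 other base excision genes, the replicative ligase gene Lig1 (3.05-fold) and the glycosylase gene Neil3 (2.56-fold) were higher, with a median of 0.06. Of 21 other checkpoint and break signalling genes, Brcc3, Etaa1 and Timeless were higher, with a median of 0.08. The probe sets of Brcc3 ran from -0.77 to 1.38 and those of Etaa1 from -0.42 to 1.12. Of 6 other end joining genes, Aplf was at least 2.49-fold higher and Polm at least 2.27-fold lower, with a median of 0.11. Of 15 nucleotide excision genes, Xpc, which recognises bulky lesions, was 2.01-fold lower, and the median was 0.01. Of 2 other mismatch repair genes, neither was 2-fold apart, and the median was -0.02.

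**Figure D5:**
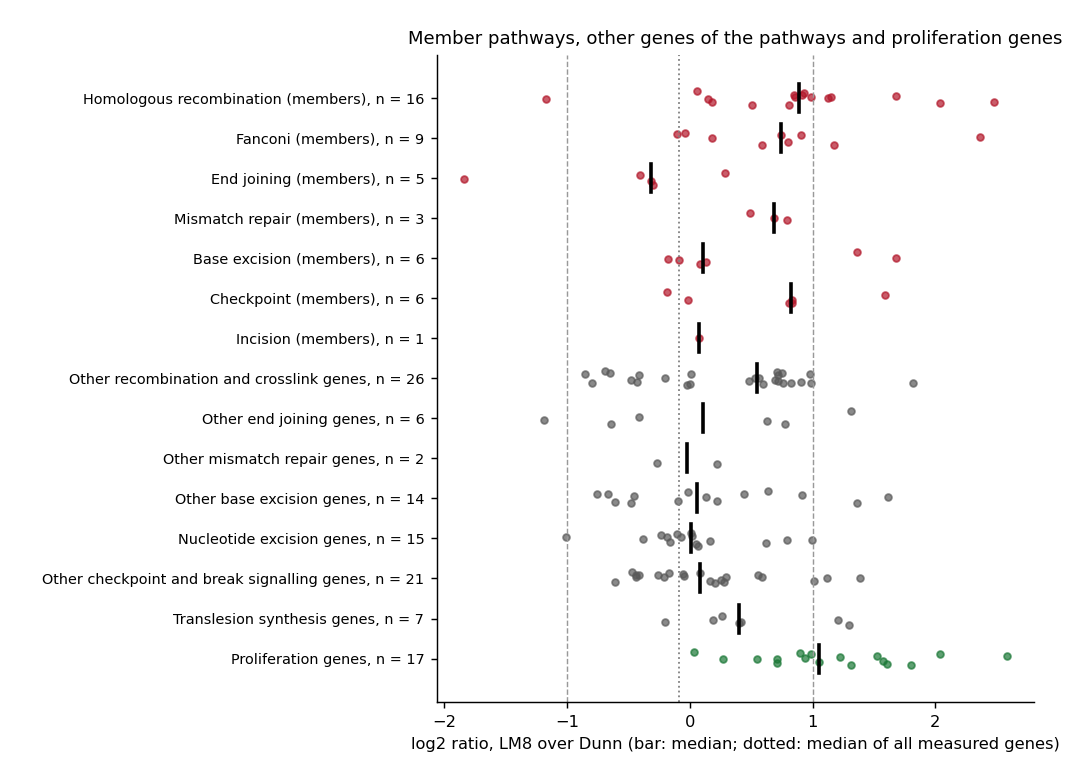
Log2 ratio of LM8 over Dunn for each gene of the 7 member groups (red), of the 7 lists of other pathway genes (grey) and of the proliferation genes (green), with black bars at the medians and a dotted line at the median of all measured genes. Recombination, Fanconi, checkpoint and proliferation genes have medians between 0.75 (Fanconi) and 1.05 (proliferation), and end joining members have a median of -0.31.

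Proliferation genes were higher in LM8 alongside the repair genes. All 17 measured genes were above 0, beside 44.7% of all genes. At least 2-fold higher were 9 of the 17 (52.9%), beside 6.51% of all genes. The median log2 ratio was 1.05, beside -0.08. Cdk1, the mitotic kinase, had 1439 in LM8 and 349 in Dunn, and Mki67, a marker of cycling cells, had 968 and 278. E2f1, a transcription factor of S phase entry, had 249 in LM8 and 82.0 in Dunn. Pcna, the replication clamp, had 4476 in LM8 and 3059 in Dunn, a log2 ratio of 0.55, and Mcm2 stood at 0.04. Each line was 1 culture, so growth state and cell line cannot be told apart in the repair gene results.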

How the data were processed

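The authors deposited linear intensities, 1 per probe set, made with MAS5 per the submitters' processing notes. Its version and settings are not given in the sources used here. Both arrays carried 45101 probe sets and, as deposited, had the same 2% trimmed mean of 100. The labels give 10 µg of RNA per array. After 64 control probe sets were dropped, the other 45037 were set to the same trimmed mean (factors of 1.00). The floor was each array's median.

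Symbols were taken from the platform's annotation and updated by gene identifier, which matched for 99.4% of 34958 probe sets with 1 symbol. The brightest measured probe set stood for a gene, and a gene was counted at 2-fold. The members, pathway groups and other lists were chosen with earlier results of these data known. All members are accounted for, and at most 4 genes at least 2-fold apart are named from each other list. The markers and proliferation genes printed, and Rad51b, Rad51d, Atrip, Rad9a, Rad1, Tipin, Rad17 and Hus1, were picked after their values were seen. Alternatives covered scaling, floor, gene value and call rule. The steps were tested on simulated data in which only genes far above the floor were changed, so changes in dim genes were not covered. The software was Python 3.11.15 with pandas 2.3.3, numpy 2.4.6, statsmodels 0.14.6, scipy 1.17.1 and matplotlib 3.10.9.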

Additional observations from a re-analysis of the deposited data

How the results depend on the processing

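The main counts of 10 higher and 2 lower members depended on scaling and on the treatment of dim signals. The higher count was 16 with array medians, 22 with the hybridisation controls (12 bright bacterial probe sets, mean log2 ratio -0.24, SD 0.10), 5 with the floor at the 75th percentile, 6 with a 3-fold rule and 5 if every probe set had to be 2-fold apart. Of all genes, 8.66%, 10.5%, 5.13%, 2.49% and 4.36% were higher under these settings, in the same order, beside 6.51% in the main one. The higher member count stayed between 8 and 11 in the other 7 alternatives, where 3.31% to 13.7% of all genes were higher. The number of lower members was 0 at that raised floor. It was 1 with the hybridisation controls, a pseudocount, averaged probe sets, the 3-fold rule and the rule on every probe set. It was 2 in the other 6 alternatives. Over all genes the share that was lower ran from 2.84% (3-fold rule) to 17.9% (no floor) across the alternatives. The median log2 ratio of the members ranged from 0.43 to 0.96. Without a floor Ogg1 turned to -0.015, because its other probe set became the brightest. The cause of the other shifts was not tested. No paired analysis was possible because each line has 1 array. Signals near the floor limit Bard1, Rad54b, Fancb, Fancg, Fancm, Brip1 and Ogg1.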

Other observations

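Bard1 and Xrcc5 are neighbours in the GRCm38.p6 gene order, with 4 measured genes between them, yet Bard1 was at least 1.91-fold higher in LM8 and Xrcc5 was 3.57-fold lower. The 20 nearest measured genes of each had median log2 ratios of -0.47 around Bard1 and -0.44 around Xrcc5. In both neighbourhoods, which overlap, 5 genes of 20 were at least 2-fold lower and 0 higher, beside 8.84% and 6.51% of all measured genes. Around the 12 members at least 2-fold apart, the neighbourhood medians ran from -0.56 (Ogg1) to 0.38 (Parp2). The most higher genes of 20 were 4, around Parp2, and the most lower were 5, around Xrcc5, both above those shares of all genes.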
